A study of Mus musculus with 75 samples.

Results

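Potassium channel genes were described in nuclear RNA of the mouse nucleus accumbens. The members were all genes of the count table whose GENCODE M21 symbol was Kcn followed by a family letter or letters and a number and whose gene type was protein coding, which gave 92 of 55401 genes. The 7 other genes with a symbol starting in Kcn, 5 of them antisense transcripts, fell outside that rule. By symbol stem the members comprised 30 voltage-gated pore subunits (Kcna, Kcnb, Kcnc, Kcnd, Kcnq, Kcnh), 15 auxiliary subunits (Kcnab, Kcne, Kcnip, Kcnmb), 15 inward rectifiers (Kcnj), 14 two-pore leak channels (Kcnk), 10 modifier pore subunits (Kcnf, Kcng, Kcns, Kcnv) and 8 calcium- or sodium-activated pore subunits (Kcnma, Kcnn, Kcnt, Kcnu). All 92 passed the filter on low counts in both lines.

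The series held 75 libraries of nuclei that were sorted by fluorescence from male mice, offspring of LSL-eGFP::L10a reporter mice and either D1-Cre or D2-Cre mice, so every group shared the reporter and the lines differed in which Cre switched it on. Mice received saline or cocaine (20 mg/kg, intraperitoneal) for 10 days, then 30 days of withdrawal, then a challenge of saline or cocaine 1 h before sacrifice. Group names give the line, the repeated injection and the challenge (S saline, C cocaine): D1_SS (n = 10), D1_SC (n = 9), D1_CS (n = 8), D1_CC (n = 10), D2_SS (n = 9), D2_SC (n = 9), D2_CS (n = 10) and D2_CC (n = 10). The labels number the libraries within a group but do not say whether each came from 1 animal or from a pool, and p-values measure the spread between libraries.

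Potassium channels let potassium leave the cell and pull the membrane toward rest. Medium spiny neurons, the projection neurons of the accumbens, are known for strong inward rectification by Kir2 channels (Kcnj2, Kcnj4) that holds them silent between volleys of input, for a slowly inactivating current of Kv1 channels (Kcna1, Kcna2) that delays the first spike, for the A-type current of Kv4 channels (Kcnd2) with their KChIP partners (Kcnip), and for the muscarine-sensitive M current of KCNQ channels (Kcnq3, Kcnq5). All pore-forming members share the stretch of the pore loop that selects potassium, and the auxiliary subunits lack it.

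That shared stretch is shown because it is what makes the members a family. The coding sequences of GENCODE M21 (mm10) were searched for 5 consecutive codons that read threonine or serine, any residue, glycine, an aromatic residue or leucine, and glycine. All 77 pore-forming members held it, the 15 auxiliary members did not, and all 14 two-pore genes held at least 2 copies. The 45 coding bases around it are printed 5′ to 3′ with the 15 bases of the signature in capitals.
Kcna1: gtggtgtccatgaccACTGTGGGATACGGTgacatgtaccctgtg
Kcna4: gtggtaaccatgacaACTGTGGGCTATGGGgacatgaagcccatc
Kcna5: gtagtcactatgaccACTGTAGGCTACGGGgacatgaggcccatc
Kcnd2: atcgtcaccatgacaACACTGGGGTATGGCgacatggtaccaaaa
Kcnma1: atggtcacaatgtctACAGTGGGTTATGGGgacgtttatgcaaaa
Kcnj2: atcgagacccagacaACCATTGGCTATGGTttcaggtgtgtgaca
Kcnj4: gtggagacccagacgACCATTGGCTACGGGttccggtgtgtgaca
Kcnk13, first pore: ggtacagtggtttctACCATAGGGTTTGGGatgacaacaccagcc
Kcnk13, second pore: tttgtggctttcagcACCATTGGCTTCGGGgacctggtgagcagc
The genes differ far more in size than in this stretch. The coding sequence lies in 1 exon in 19 members (median gene length 8.37 kb), among them Kcna1, Kcna2, Kcna3, Kcna4, Kcna5, Kcnf1, Kcns2, Kcnj2, Kcnj4 and Kcnj11. The other members are split over several coding exons, with a median length of 45.3 kb, and 23 members are longer than 100 kb. Because counts covered whole genes with their introns, long genes collect most of the reads: members over 100 kb held a median of 84.6% of all potassium channel counts in D1_SS.

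Depth and purity varied between libraries. Total counts ranged from 19825 to 34870414 (median 14893119), and 71 libraries had over 1000000. Of the 37 libraries labelled D1, 16 had more Drd2 than Drd1, whereas all 38 labelled D2 had more Drd2, so the label of the D1 line is not borne out by its receptor in each library. The groups differed in this: Drd1 exceeded Drd2 in 8 of 10 D1_SS, 3 of 9 D1_SC, 4 of 8 D1_CS and 6 of 10 D1_CC libraries. A quality rule on depth, number of genes, the ratio of the receptors and correlation with the line failed 19 libraries: 3 in D1_CC, 2 in D1_CS, 4 in D1_SC, none in D1_SS, 2 in D2_CC, 5 in D2_CS, 2 in D2_SC and 1 in D2_SS. Its receptor limit lay midway between the medians of the lines, so D1 libraries with more Drd2, such as D1_SC replicate 6 and D1_CC replicate 10, could pass. As a measure of background, the density of reads on 1420 olfactory and vomeronasal receptor genes, which brain nuclei should not transcribe, was extended over all genes; the background share of a library had its lowest D1 group median in D1_SC (22.9%), followed by D1_SS (45.1%), D1_CC (55.2%) and D1_CS (63.4%). Summed markers of other cells varied as much: the 6 astrocyte markers ranged from 104 to 733 CPM (counts per 1000000 of the library total) in D1_SC and from 197 to 381 in D1_SS, the 6 oligodendrocyte markers from 99.4 to 831 and from 147 to 277, and no marker was at 0 in any group. Drd2 itself was higher in D1 SC minus SS (log2 change 1.56 ± 0.49, adjusted p = 0.0332, edgeR) and Drd1 in D1 CC minus CS (1.81 ± 0.57, adjusted p = 0.0387). The part of markers, receptors and background in the results below was not tested.

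Levels were compared between genes only per length, as CPM per kb averaged over the 71 libraries with over 1000000 counts. That length is the counted gene length with introns. The highest were Kcna4 (9.30 ± 4.59 CPM per kb, SD, n = 71), a pore subunit of A-type Kv1 channels, Kcna1 (6.28 ± 3.90), a subunit of axonal Kv1 channels, Kcna5 (4.57 ± 3.99), a further Kv1 subunit, Kcnj2 (4.37 ± 2.71), the Kir2.1 inward rectifier, and Kcnf1 (4.29 ± 3.71), a silent subunit that modifies Kv2 channels. From Kcna4 to Kcnf1 each step down was smaller than the SD of either neighbour. All 5 have a single coding exon and span from 2.862 kb (Kcna5) to 10.658 kb (Kcnj2). Their rank against long genes, whose length is mostly introns, is therefore uncertain. The lowest were Kcnj15 (0.208 ± 0.106), Kcnmb1 (0.268 ± 0.176), Kcne4 (0.292 ± 0.172), Kcne3 (0.295 ± 0.175) and Kcnh8 (0.353 ± 0.175). Kcnj15, Kcnmb1, Kcne4 and Kcne3 lie wholly within a gene on the opposite strand, and because the strand setting of the counting is not given, their values are uncertain, as are those of 33 members in all that overlap an opposite-strand gene in part or whole.

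Divided by the density on the silent receptor genes of the same library, 39 of 92 members had a median ratio over 2. By role these were 18 of 30 voltage-gated pores, 7 of 15 auxiliary subunits, 4 of 15 inward rectifiers, 4 of 10 modifier pores, 3 of 8 activated pores and 3 of 14 two-pore genes. The ratio was over 2 in all 71 libraries for 6 members, among them Kcna4, Kcna1, Kcnj2, Kcnd2 and Kcna2. With counts pooled over the 71 libraries, a different measure, single silent receptor genes ran from 0.43 to 1.88 (5th to 95th percentile) and members from 1.12 to 11.2. The spread of per-library medians of silent receptor genes was not computed. Among the inward rectifiers, Kcnj2 and Kcnj4 had median ratios of 12.5 and 6.56, and the G-protein-gated Kcnj9 4.48, whereas its partners Kcnj3 and Kcnj6 stood at 1.65 and 1.70. Among the KChIP genes, Kcnip2 and Kcnip4 had 7.84 and 4.86 and Kcnip1 1.59. Members known from glia stood under 2: Kcnj10, the Kir4.1 channel of astrocytes, had 1.79, Kcnj16 1.51 and Kcnk13, the THIK-1 channel of microglia, 1.76.

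**Figure D1:**
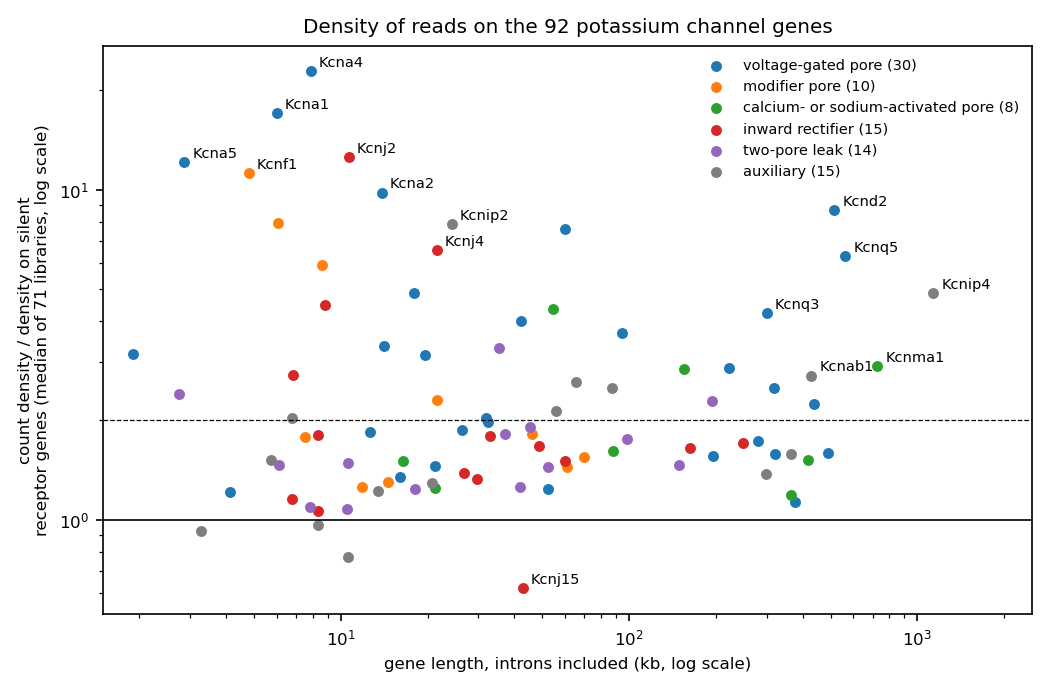
Each point is 1 of the 92 members, with gene length in kb on the x axis (log scale) and, on the y axis (log scale), its read density over that of silent receptor genes, as the median of the 71 libraries with over 1000000 counts; colours give the role, the solid line is a ratio of 1 and the dashed line 2. Both short Kcna genes and long genes such as Kcnd2 (median ratio 8.65) and Kcnq5 (6.27) lie above 2, and Kcnj15 (0.62) is lowest.

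A first cocaine challenge after repeated saline was compared with saline throughout. In the D1 line, 24 members rose and 1 fell (edgeR quasi-likelihood test, TMM scaling, Benjamini-Hochberg adjusted p under 0.05 over 37721 genes), a share of 26.1% higher and 1.09% lower where 9.7% of all genes tested were higher and 1.64% lower (11.3% together). The risers were 11 of 30 voltage-gated pores, 5 of 15 auxiliary subunits, 3 of 8 activated pores, 3 of 14 two-pore genes, 2 of 15 inward rectifiers and none of 10 modifier pores. Kcne2, a small auxiliary subunit best known from epithelia, was the member that fell. Over all members the median log2 change was 0.39, against -0.07 over all genes tested.

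Kcnd2, the main pore subunit of the somatodendritic A-type current (ENSMUSG00000060882.5, mm10 chr6:21215503-21729805, 514.3 kb), ranged from 883 to 2424 CPM with a median of 1626 in the D1_SS libraries and from 1068 to 4986 with a median of 3141 in D1_SC. D1_SC replicates 9, 4, 5 and 2 were the highest and replicate 7 the lowest, and the groups overlapped. The log2 change was 1.56 ± 0.38 (SE, adjusted p = 0.00766, edgeR), and 8 of 9 D1_SC libraries were above the D1_SS median. Kcnip4, the KChIP4 calcium sensor that binds Kv4 channels (ENSMUSG00000029088.16, chr5:48389502-49524907, the longest member at 1135 kb), ranged from 1488 to 2929 CPM (median 2173) in D1_SS and from 1341 to 4867 (median 2942) in D1_SC. D1_SC replicate 7 was below every D1_SS library and replicate 2 was highest. The log2 change was 1.24 ± 0.30 (adjusted p = 0.00766, edgeR).

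Kcnq3 and Kcnq5, subunits of the M current, rose as Kcnd2 did. Kcnq3 rose by 1.31 ± 0.31 on the log2 scale after TMM scaling (adjusted p = 0.00652, edgeR). Its CPM, which is not TMM-scaled and differed less, was 498 ± 101 (SD, n = 10) in D1_SS and 742 ± 306 (n = 9) in D1_SC. Kcnq5 (ENSMUSG00000028033.16, chr1:21398403-21961942, 563.5 kb) rose by 1.29 ± 0.33 (adjusted p = 0.0096, edgeR), with 1481 ± 393 CPM in D1_SS and 2211 ± 828 in D1_SC, again without TMM scaling. For both, 6 of 9 D1_SC libraries were above the D1_SS median. The Kv2.2 gene Kcnb2 rose by 1.10, the EAG-type genes Kcnh1, Kcnh3, Kcnh5 and Kcnh7 by 1.03, 1.39, 0.75 and 0.49, Kcnd3 by 0.87 and Kcnq1, whose main known roles are in heart and epithelium, by 0.66. Kcnq1 overlaps other genes, some on the opposite strand, over 46.66% of its length, so its value is uncertain.

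Of the auxiliary subunits, Kcnab1 (the Kvβ1 subunit that speeds inactivation of Kv1 channels) rose by 1.34, Kcnip2 by 1.42, Kcnip3 (KChIP3, also known as DREAM) by 1.01 and Kcnab2 by 0.64. Opposite-strand genes overlap 45.28% of Kcnab1, so its value is uncertain. Of the activated pores, Kcnn3 (the SK3 calcium-activated channel) rose by 1.06, Kcnt1 (the sodium-activated Slack channel) by 1.05 and Kcnma1 (the BK channel) by 0.76. Kcnj3, a G-protein-gated inward rectifier, rose by 0.75, and among the two-pore genes Kcnk13 rose by 0.78 and Kcnk9 by 0.79. Kcne2 had a median of 3.93 CPM in D1_SS and 0.869 in D1_SC, with at most 2.71 CPM in any D1_SC library, and fell by 1.25 on the log2 scale (adjusted p = 0.031, edgeR). Its median density was 1.51 times that of silent receptor genes over the 71 libraries.

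Several calls rested on 1 shallow library. D1_SC replicate 5 had 651445 counts and was the highest D1_SC library for Kcnj13 (44.5 CPM from 29 counts), Kcnh3 (169 CPM), Kcnip2 (402 CPM), Kcnk9 (103 CPM) and Kcnh5 (411 CPM). Without it 10 members were higher and 1 lower, where 1261 of 37843 genes were higher and 302 lower. The log2 changes of Kcnj13, Kcnh3, Kcnip2, Kcnk9 and Kcnh5 were then 0.70, 0.75, 0.62, 0.18 and 0.23, with adjusted p of 0.124, 0.151, 0.231, 0.417 and 0.253 (edgeR). Kcnk16, a two-pore channel best known from pancreas, was called at 1.83, but its median was 2.25 CPM in D1_SC and 3.17 in D1_SS. The call came with 56.5 CPM in D1_SC replicate 1, and without that library the log2 change was 0.25 (adjusted p = 0.638, edgeR). Kcnj13 lies wholly within Gigyf2 on the opposite strand.

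The size and number of these changes depended on how libraries were scaled. TMM factors had a median of 0.799 in D1_SC and 1.12 in D1_SS, so a gene with equal CPM in both groups has a log2 change above 0. With total counts alone as the scale, an alternative chosen after seeing the data, the median of all genes moved to -0.53 and that of the members to -0.13. On that scale 1 member was called, where 0.708% of all genes were. Under that scale Kcnd2 changed by 0.83, Kcnip4 by 0.53 and Kcnq5 by 0.58, with adjusted p of 0.0649, 0.0743 and 0.0728, and Kcnh7 went to -0.11. The members' median stood above that of all genes by 0.45 with TMM, 0.48 with RLE scaling and 0.40 with total counts, but by 0.28 with limma and library weights and 0.17 with background share as a covariate.

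**Figure D2:**
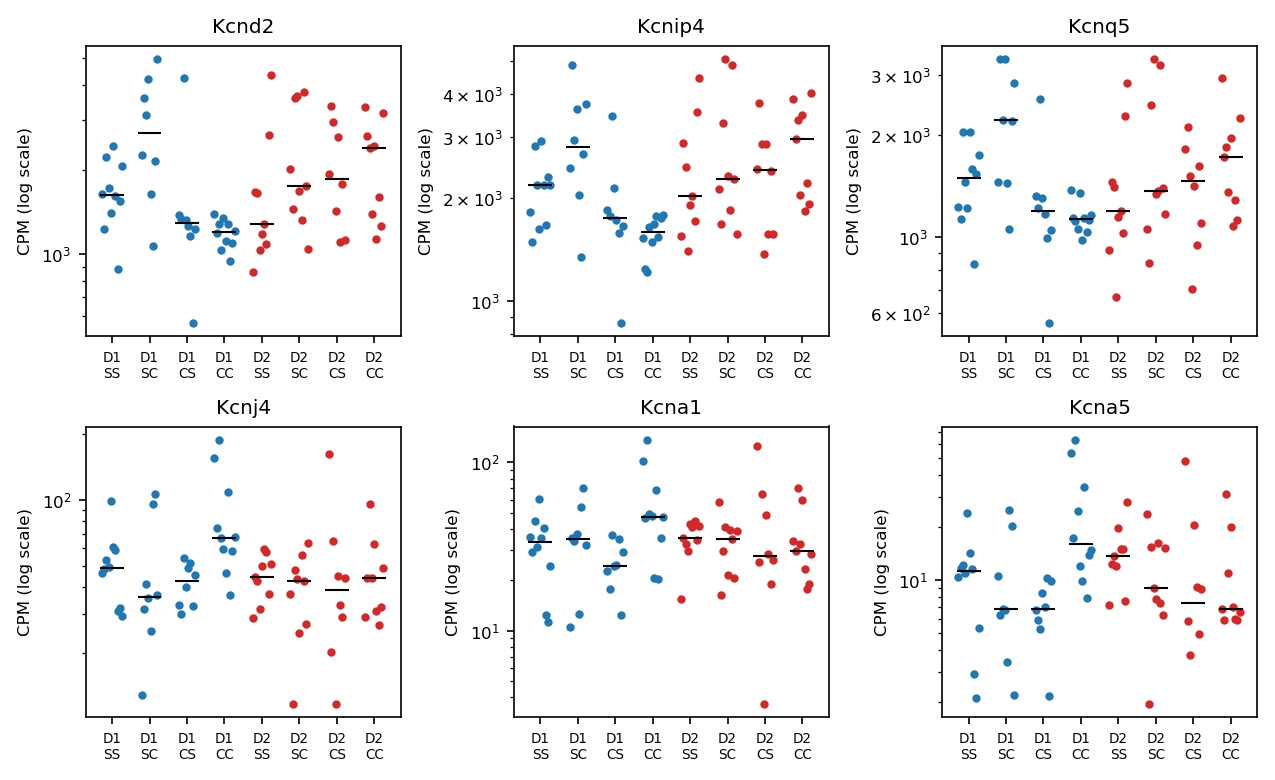
Each point is 1 library with over 1000000 counts, with CPM on the y axis (log scale) and the 8 groups on the x axis (D1 line blue, D2 line red); the black line is the group median. The D1_SC libraries reach the highest D1 values of Kcnd2, Kcnip4 and Kcnq5 and the D1_CC libraries those of Kcnj4, Kcna1 and Kcna5, with overlapping ranges throughout.

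The risers were mostly long genes. Of the 23 members over 100 kb, 14 rose (60.9%), against 34.7% of all 2874 genes tested of that length. Of the 36 members of 20 kb or shorter, 4 rose and 1 fell, against 5.84% and 1.96% of all 24970 genes of that length. The median length of the risers was 192 kb, and none of the 19 members with 1 coding exon was among them. The median log2 change was 0.75 for members over 100 kb, 0.36 for all genes over 100 kb and 0.44 for the protein-coding ones.

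In D1 CC minus CS, the cocaine against the saline challenge in mice with a cocaine history, 10 members rose and none fell, a share of 10.9% where 8.28% of all genes tested were higher and 0.0292% lower (8.31% together). Of the 10, 8 had a single coding exon and the longest spanned 21.5 kb, and no member over 100 kb was called. At 20 kb or shorter 9 of 36 members rose (25%), against 10.4% of all genes tested of that length. The 10 were the Kv1 genes Kcna5, Kcna1, Kcna3 and Kcna2, the modifier subunits Kcnf1, Kcns2 and Kcnv1, and the inward rectifiers Kcnj4 (Kir2.3), Kcnj9 (GIRK3) and Kcnj11 (Kir6.2, the pore of ATP-sensitive channels). The median over all 92 members was -0.07, against -0.09 over all genes tested. All 10 had a median density over 2 times that of silent receptor genes.

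Kcna5 (ENSMUSG00000045534.4, chr6:126532551-126535412, 2.86 kb) ranged from 2.17 to 10.2 CPM (median 6.85) in D1_CS and from 7.87 to 63.3 (median 16.1) in D1_CC. All 10 D1_CC libraries were above the D1_CS median, and replicates 3 (63.3 CPM) and 1 (53.2 CPM) stood highest. The log2 change was 2.37 ± 0.53 (adjusted p = 0.017, edgeR). Kcna1 (ENSMUSG00000047976.4, chr6:126640397-126646384), its neighbour on the chromosome, ranged from 12.3 to 36.8 CPM (median 24.4) in D1_CS and from 20.3 to 136 (median 47.7) in D1_CC, again with replicates 3 and 1 highest. It rose by 1.58 ± 0.46 (adjusted p = 0.0267, edgeR). Kcnj4, whose Kir2.3 channels help set the resting potential of medium spiny neurons, ranged from 30.1 to 54.4 CPM (median 42.5) in D1_CS and from 36.6 to 188 (median 67.2) in D1_CC, and rose by 1.44 ± 0.40 (adjusted p = 0.0232, edgeR).

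The other risers were Kcnf1 (1.98), Kcns2 (1.67), Kcnv1 (1.499), Kcna3 (1.38), Kcnj9 (1.22), Kcna2 (1.19) and Kcnj11 (1.14), with adjusted p from 0.0229 to 0.041 (edgeR). Kcna3 lies wholly within an opposite-strand gene and is uncertain. Kcnj2 had a log2 change of 1.35 ± 0.45 and missed the threshold (adjusted p = 0.0529). Kcnd2 and Kcnip4, which rose in SC minus SS, were not called here.

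The calls depended on D1_CC replicates 1 and 3. Without either of them no member and no gene at all passed. Without D1_CS replicate 1, 2 or 7 only 1 member did (leave-one-out fits, chosen after seeing the data). There 1560 of 37954, 1022 of 37920 and 1445 of 38066 genes were higher. Across the 18 fits that left out 1 D1_CC or D1_CS library, Kcna5 kept a log2 change between 1.87 and 2.49 and passed in 16. With RLE scaling 1 member passed (1.79% of all genes), with total counts 0 (0%) and with DESeq2 7 (6.7%). Limma with library weights called 15 members higher and 2 lower, where 9.8% of all genes were higher and 2.25% lower.

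**Figure D3:**
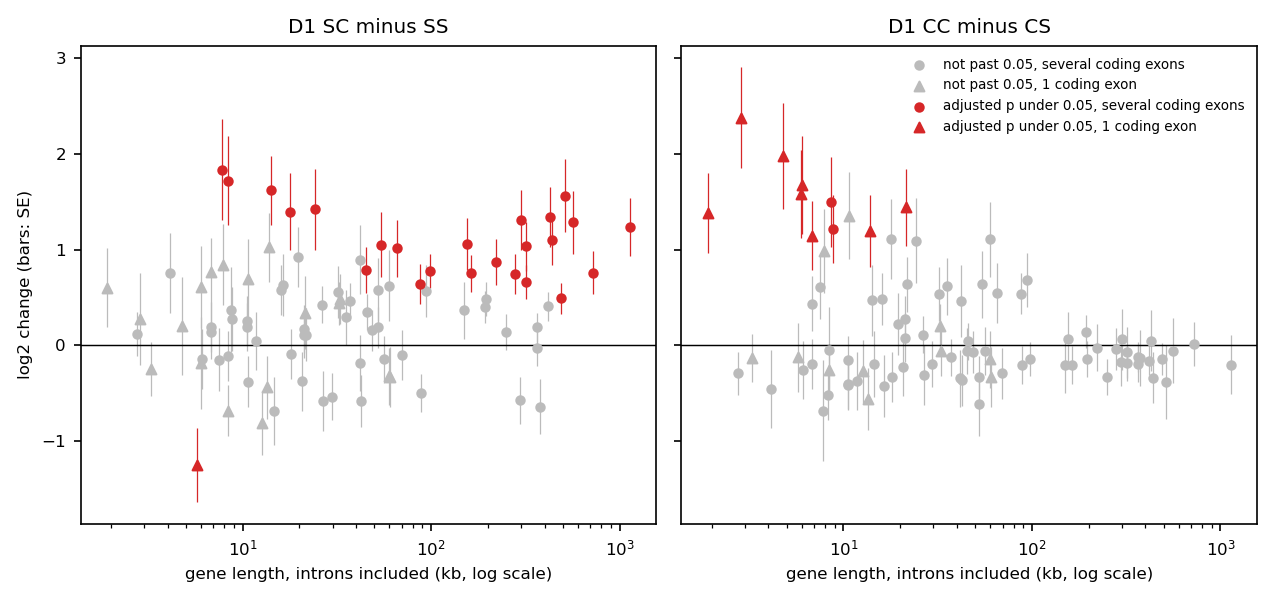
The log2 change of each of the 92 members (y axis, bars are the SE) is plotted against its gene length in kb (x axis, log scale) for D1 SC minus SS and D1 CC minus CS; red marks members past an adjusted p of 0.05 and triangles members with a single coding exon. In SC minus SS 14 of the red points lie beyond 100 kb, and in CC minus CS 9 of 10 lie at 20 kb or below.

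The libraries behind these calls differed in background and in where their potassium channel reads lay. In D1_SC the replicates 2, 4 and 9 had the lowest background shares (8.01%, 5.65% and 5.87%), and 91.7%, 91.5% and 91.9% of their potassium channel counts lay on members over 100 kb. Kcnip4, Kcnd2 and Kcnq5 alone took 59.4%, 58.1% and 59.5%. D1_CS replicate 3, a saline-challenged library, had the same makeup: a background of 10.3%, 90.0% on members over 100 kb and 56.8% on those 3 genes. D1_CC replicates 3 and 1 also had low backgrounds (4.03% and 16.5%) but the opposite makeup, with 66.9% and 74.4% of their potassium channel counts on members over 100 kb and 11.9% and 8.52% on members with 1 coding exon, where the D1_CC median was 4.83%. These values moved with the results above, and their part in them was not tested.

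Without D1_SC replicate 2 or replicate 4, 1 member was called in SC minus SS. Of all genes, 420 of 37653 and 469 of 37838 were higher in these fits, and 39 and 42 lower. Without replicate 9 the calls numbered 3, among them Kcnk13 (log2 change 0.63, adjusted p = 0.0421) and Kcnk16 (1.76, adjusted p = 0.0451, edgeR). In that fit 685 of 37828 genes were higher and 92 lower. Without D1_SS replicate 3, 8 members were higher and 1 lower, where 1180 of 37802 genes were higher and 325 lower. With the background share as a covariate no member was called in SC minus SS or in CC minus CS (0.0053% and 0% of all genes). After subtraction of the counts expected from background (chosen after seeing the data), 1 member was called in SC minus SS and none in CC minus CS (1.12% and 0% of all genes). With the 19 libraries under the quality rule left out no member was called in either (0% of all genes in each).

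**Figure D4:**
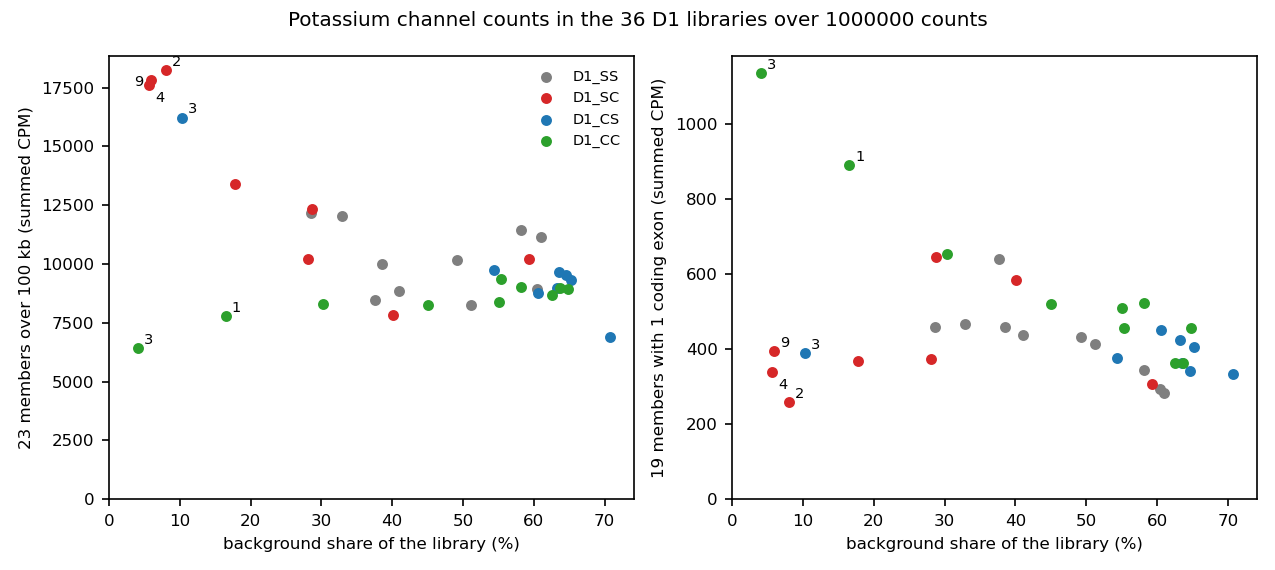
Each point is 1 of the 36 D1 libraries with over 1000000 counts, with its background share in percent on the x axis and, on the y axis, the summed CPM of the 23 members over 100 kb (left) or of the 19 members with 1 coding exon (right); colours give the group and digits the replicate of libraries below a background of 17%. D1_SC replicates 2, 4 and 9 and D1_CS replicate 3 sit between 16232 and 18241 CPM on long members, and D1_CC replicates 3 and 1 sit highest on single-exon members (1137 and 891 CPM).

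The cocaine-challenged groups were also set against each other. In D1 CC minus SC, 19 members were lower in D1_CC and none was higher, a share of 20.7% lower where 7.86% of all genes tested were lower and 2.62% higher (10.5% together). The 19 comprised 10 voltage-gated pores, 3 two-pore genes, 2 auxiliary subunits, 2 activated pores and 2 inward rectifiers, with a median length of 300.3 kb. Of the 23 members over 100 kb, 15 fell, against 27.7% of all genes of that length. This comparison shares the D1_SC libraries with SC minus SS, so the 18 members called in both (of 24 and of 19) are not independent evidence.

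Kcnip4 ranged from 1211 to 1775 CPM in D1_CC (median 1587) against a D1_SC median of 2942, and its log2 change was -1.54 ± 0.30 (adjusted p = 0.00215, edgeR). Kcnd2 ranged from 941 to 1395 CPM in D1_CC (median 1195) against a D1_SC median of 3141, with a change of -1.86 ± 0.39 (adjusted p = 0.00269). For both, no D1_CC library reached the D1_SC median, although D1_SC replicate 7 fell within the D1_CC range. Kcnb2 (-1.31), Kcnd2, Kcnip4 and Kcnq1 (-0.93) passed in all 19 fits that left out 1 D1_CC or D1_SC library, some of which were chosen after seeing the data. Other genes, 4 of 8 on the opposite strand, overlap 46.66% of Kcnq1. Opposite-strand genes overlap 45.28% of Kcnab1. With the strand setting not given, the values of Kcnq1 and Kcnab1 are uncertain. With total counts as the scale, 6.32% of all genes were higher and 2.73% lower. Kcnip4, Kcnb2, Kcnd2, Kcnq5, Kcnq3 and Kcnab1 stayed lower on that scale (log2 changes of -0.97, -0.69, -1.33, -0.94, -0.74 and -0.67), and 1 member was higher. Kcnc2, a Kv3.2 subunit of fast-spiking cells, was the 1 member called here (-0.59) and not in SC minus SS. With the background share as a covariate 12 members were higher and 15 lower, where 12.4% of all genes were higher and 6.2% lower in that fit. With the libraries under the quality rule left out no member was called (0% of all genes).

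**Figure D5:**
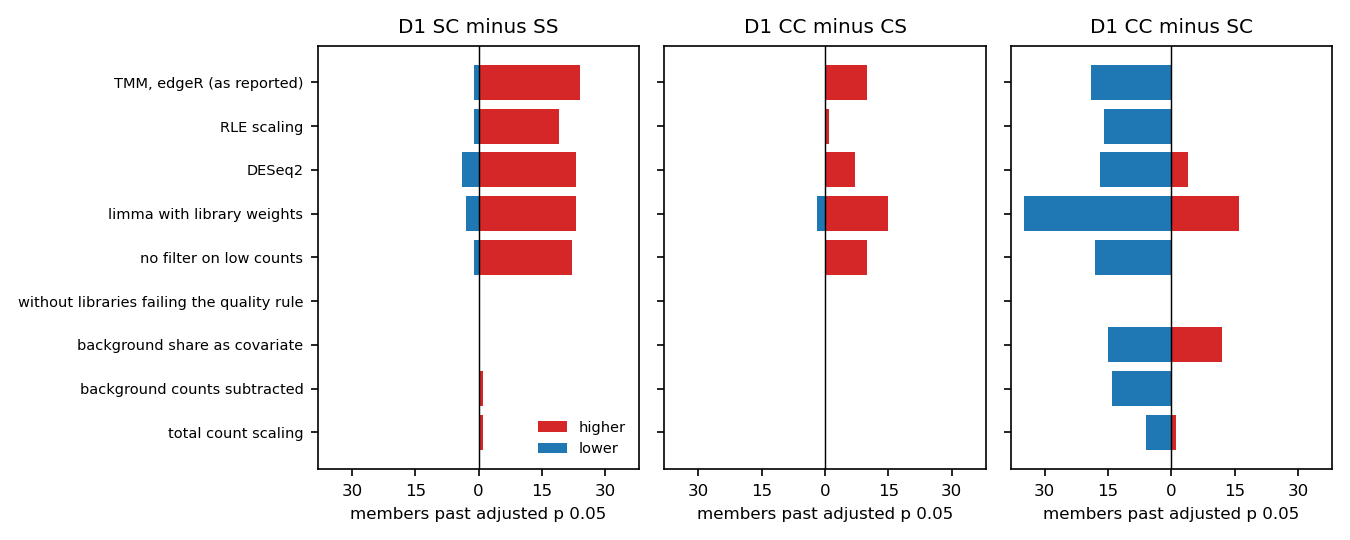
Bars give the number of members past an adjusted p of 0.05 in 3 D1 comparisons (higher to the right in red, lower to the left in blue, on 1 linear axis from 0) under TMM scaling as reported and under 8 alternatives. In SC minus SS 24 were higher and 1 lower as reported (9.7% and 1.64% of all genes). The numbers were 23 and 4 with DESeq2 (8.93% and 6.05%), and 23 and 3 with limma and library weights (4.46% and 2.79%). In SC minus SS none was called without the libraries failing the quality rule (0% of all genes) or with background share as covariate (0.0053%).

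The interaction, (CC minus CS) minus (SC minus SS), tests whether the D1 challenge response differed with history. No member and no other gene passed (0% of 37721 genes, edgeR). An unadjusted p under 0.05 was found for 29 members, but the share of all genes at that level is not given, so this count does not set the members apart. The smallest belonged to Kcnb2 (-1.44 ± 0.37, adjusted p = 0.0527), Kcnk13 (-0.92 ± 0.25, adjusted p = 0.0532) and Kcnd2 (-1.95 ± 0.54, adjusted p = 0.0553). The median was -0.79 for members over 100 kb and -0.34 for all genes of that length. The number called varied with the method: 7 members were lower with RLE scaling (1.99% of all genes lower), 13 lower and 1 higher with DESeq2 (4.23% and 3.56% of all genes), and 1 lower with limma and library weights (0.0345% of all genes).

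After a saline challenge a cocaine history gave no call. In D1 CS minus SS, 0% of genes passed and no member had an unadjusted p under 0.05 (edgeR), with 0 calls by DESeq2 and 34 (13 higher, 21 lower) by limma with library weights, which called 19.4% of all genes higher and 24.5% lower. Kcns2 (-0.78 ± 0.50), Kcnv1 (-0.65 ± 0.46) and Kcna5 (-0.69 ± 0.50) came first. In D1 CC minus SS, 0% of genes passed and 13 members had an unadjusted p under 0.05 (edgeR), with 0 calls by DESeq2 and by limma. The share of all genes at that unadjusted level is not given, so the count of 13 does not set the members apart. The first were Kcna5 (1.68 ± 0.47), Kcnj4 (1.14 ± 0.37) and Kcna2 (1.02 ± 0.35), each with an adjusted p of 0.695.

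In the D2 line the potassium channel genes gave 1 call in 6 comparisons. Kcnd1, a Kv4.1 subunit (ENSMUSG00000009731.4, chrX:7822289-7838280), was lower in D2 CC minus CS (-2.14 ± 0.47, adjusted p = 0.0343, edgeR), where 0.252% of the 36090 genes tested were lower and 0% higher. The medians were close, 6.37 CPM in D2_CC and 6.995 in D2_CS, and the D2_CS range ran from 0 to 94.4 CPM. The highest library was D2_CS replicate 4, with 1367040 counts in all and 129 on Kcnd1, and without it the log2 change was -1.10 (adjusted p = 0.511, edgeR). The call was also absent without D2_CS replicate 3 and without any of the D2_CC libraries except replicate 3. D2_CS replicate 4 was the highest library for Kcnk3 (TASK-1, 247 CPM) and Kcnk16 (151 CPM) too. These came next in the comparison, Kcnk16 with -3.12 ± 0.87 (adjusted p = 0.0978) and Kcnk3 with -1.38 ± 0.41 (adjusted p = 0.145, edgeR), and without that library their changes were 0.46 and -0.08.

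No member was called in the other D2 comparisons. Counts of members at an unadjusted p are given here without the share of all genes at that level and do not set the members apart. D2 SC minus SS had 0% of genes called and 5 members with an unadjusted p under 0.05 (edgeR), led by Kcnn3 (0.74 ± 0.28), Kcns2 (-0.77 ± 0.36) and Kcnd3 (0.58 ± 0.28); DESeq2 called 0 and limma 9 higher and 2 lower (5.07% and 8.49% of all genes). In D2 CS minus SS 0.0859% of genes were called, all higher, and 9 members had an unadjusted p under 0.05, led by Kcnd1 (2.01 ± 0.47, adjusted p = 0.0596, edgeR), Kcnk3 (1.72 ± 0.42) and Kcnk16 (3.21 ± 0.86); DESeq2 called 0 and limma 1 higher and 6 lower (2.28% and 9.24% of all genes). Without D2_CS replicate 4 these 3 changes were 0.97, 0.43 and -0.37. In D2 CC minus SS 0% of genes and none of the members was called, none had an unadjusted p under 0.05 (edgeR), DESeq2 called 0 and limma 15 higher and 9 lower (9.15% and 14.2% of all genes), and Kcnn4 (0.70 ± 0.37), Kcng1 (0.40 ± 0.26) and Kcnj11 (0.43 ± 0.28) came first. In D2 CC minus SC 0% were called, Kcnc4 (0.58 ± 0.29) was the 1 member with an unadjusted p under 0.05 (edgeR), Kcnn3 had -0.55 ± 0.28, and DESeq2 and limma called 0. In the D2 interaction 0% were called and 10 members had an unadjusted p under 0.05, led by Kcnd1 (-2.40 ± 0.65), Kcnk3 (-2.04 ± 0.58) and Kcnk16 (-4.05 ± 1.18), with 0 calls by DESeq2 and limma.

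The D2 libraries overlapped those of the D1 line for the genes above. Kcnd2 had a median of 1277 CPM in D2_SS (range 861 to 4366) and 1755 in D2_SC (1046 to 3779). Kcnip4 had a median of 2020 CPM in D2_SS (1396 to 4450) and 2260 in D2_SC (1562 to 5072). The highest D2_SS values of Kcnd2 and Kcnip4 were both in replicate 9, which had the lowest background share of its group, 5.39%. The lines were then compared directly. Between D1_SS and D2_SS no member was called where 0.0127% of 39250 genes were higher and 0.0127% lower (0.0255% together), and none had an unadjusted p under 0.05 (edgeR), with 0 calls by DESeq2 and limma; Kcna2 (-0.63 ± 0.38), Kcnd3 (-0.37 ± 0.27) and Kcnj13 (-0.54 ± 0.40) came first. The difference between the lines in SC minus SS was called for 0.028% of genes and for no member. An unadjusted p under 0.05 (edgeR) was found for 5 members, without the share of all genes at that level. The difference was 1.44 ± 0.59 for Kcnj13, 1.23 ± 0.54 for Kcna2 and 0.66 ± 0.31 for Kcnh5, and DESeq2 and limma called 0 members. The call of 24 members in the D1 line and of none in the D2 line is therefore not a shown difference between the lines.

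Genes whose products partner with potassium channels, or belong to the related HCN family, were taken as a list of 17. In D1 SC minus SS 5 of 17 rose, where 9.7% of all genes and 34.7% of those over 100 kb did, among them Dpp6 (1.38), which binds Kv4 channels, Cntnap2 (1.21), which clusters Kv1 channels along axons, Lrrc26 (1.23), a BK subunit, and Lgi1 (1.05), a secreted partner of Kv1 complexes. In D1 CC minus SC 4 of 17 were lower, where 7.86% of all genes and 27.7% of those over 100 kb were, among them Cntnap2 (-1.46), Dpp6 (-1.28) and Lrrc26 (-1.36). Dpp6 and Cntnap2 span 910.3 and 2245 kb. In D1 CC minus CS 1 of 17 rose, where 8.28% of all genes did: Amigo1 (1.68), an adhesion protein that binds Kv2 channels and has a gene of 5.95 kb. The list gave no call in the 11 other comparisons.

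Promoters were searched because a cocaine challenge is known to induce CREB- and AP-1-dependent genes. In the 250 bases before the start sites of RefSeq (GRCm38.p6), 67 members had 92 windows. On either strand the full CRE, TGACGTCA, occurred in 0 of them and in 1.55% of all 32851 windows. Its core, TGACG, which the full CRE also contains, was in 15.2% of member windows and 17.8% of all. The AP-1 motif, TGANTCA, was in 4 (4.35%, against 6.75% of all), those of Kcnk2, Kcnip3, Kcnip4 and Kcne3, and Kcnip3 and Kcnip4 are the 2 of these that rose in D1 SC minus SS. Their windows are printed 5′ to 3′ on the gene's strand (minus for both), with the motif in capitals, to show where it lies.
Kcnip4, chr5:49285660-49285909: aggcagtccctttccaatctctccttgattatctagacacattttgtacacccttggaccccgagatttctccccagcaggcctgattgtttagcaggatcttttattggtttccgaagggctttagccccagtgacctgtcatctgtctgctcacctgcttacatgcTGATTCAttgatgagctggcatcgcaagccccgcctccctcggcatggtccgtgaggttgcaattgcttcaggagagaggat
Kcnip3, chr2:127522095-127522344: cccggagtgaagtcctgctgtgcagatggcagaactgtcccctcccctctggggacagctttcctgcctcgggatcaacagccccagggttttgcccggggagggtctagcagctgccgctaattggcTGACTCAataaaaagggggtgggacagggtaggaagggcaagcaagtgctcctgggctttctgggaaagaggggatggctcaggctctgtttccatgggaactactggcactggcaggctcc
Each gene has further start sites whose windows lack the motif. A match describes these letters and no more.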

How the data were processed

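Per the labels' protocols, punched accumbens tissue was frozen, its tagged nuclei were sorted, and a strand-marking pico-input kit turned their total RNA into libraries. Per the submitters' processing notes, featureCounts and DESeq2 were used with build mm10; the aligner, all versions and the strand setting are not given in the sources used here. Deposited by the authors were raw counts, whole numbers per gene, and FPKM, which equal counts per kb of full gene span per 1000000 counts for 54271 of 54271 identifiers that match GENCODE M21 with their version; for 90 of 92 members the counted length equals that span, and for Kcnab1 and Kcnab2 it does not, so no coordinates of these are given. The deposited FPKM served only to read lengths.

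The quasi-likelihood test of edgeR 4.0.16 (R 4.3.3) was run on these counts after filterByExpr and TMM scaling, each line's 4 groups fitted together. P-values were adjusted by Benjamini-Hochberg across every gene in the fit (37721 in D1, 36090 in D2, 39250 across lines), and the threshold was 0.05. All tests are two-sided. Counts of members with an unadjusted p under 0.05 are given without the share of all genes at that level and do not set the members apart. SE is the log2 change over the root of the test statistic. The members, roles and lists were chosen with earlier results of these data known, and so were the 17 partner genes. Named were the members that passed in a comparison (up to 30), or the 3 with the smallest p where fewer than 3 passed, fixed neuronal members, and the 5 highest and lowest per length; in the libraries examined singly, genes were chosen after their values were seen. Same-numbered libraries did not deviate together (median correlation -0.0799 over 49 pairs in D1 and 0.0334 over 48 in D2). DESeq2 1.42.0 and limma 3.58.1 served as alternatives. Subtraction of background counts, total count scaling and the leave-one-out fits outside SC minus SS were added after seeing the data. All 75 columns were used, and no 2 libraries held identical values. Some genes and sequences are not reported here.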

Additional observations from a re-analysis of the deposited data

Results flagged for a closer look

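In 104 sets of 1 gene in 1 group, 19 times a library stood apart from the rest of its group (gap to the nearest library over Dixon's critical value), in 10 of the genes examined. For a single set chance gives about 1 in 20. Genes examined singly were chosen after their values were seen, and several flags share a library. The 19 therefore cannot be set against that rate. D1_CS replicate 3 was the highest of its group for Kcnd2 (4262 CPM, next 1376), Kcnq5 (2541, next 1323), Kcnq3 (848, next 456), Kcnab1 (857, next 427) and Kcna4 (108, next 60.8), and the lowest for Kcnk13 (38.2, next 71.8). Its background share was 10.3%, the lowest of D1_CS.

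D2_SS replicate 9 was the highest of its group for Kcnab1 (840 CPM, next 549) and Kcna4 (144, next 86.1) and the lowest for Kcnk13 (14.7, next 47.2). D2_CS replicate 1 was the highest for Kcna1 (126, next 65.0), Kcnj4 (161, next 64.6) and Kcnf1 (71.6, next 14.7). D2_CS replicate 4 was the highest for Kcnk13 (297, next 114) and Kcnd1 (94.4, next 37.3). D2_CS replicate 9 was the highest for Kcnab1 (2603, next 560), but it held only 19980 counts in all, so that value rests on few reads. D1_SC replicate 1 was the highest for Kcnk13 (128, next 76.2). The others were Kcnab1 in D2_CC replicate 1 (853, next 550), Kcnj4 in D1_SS replicate 5 (98.3, next 60.7) and Kcnd1 in D2_SC replicate 2, the lowest at 1.47 (next 6.04).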

How the results depend on the processing

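Counts are members called, both directions together. As reported they were 25 in D1 SC minus SS, 10 in D1 CC minus CS, 19 in D1 CC minus SC and 1 in D2 CC minus CS. Leaving out 1 library at a time they ranged from 1 to 37, 0 to 19, 5 to 29 and 0 to 2, and in D2 CS minus SS from 0 to 3. The D1 fits with the most members called also called many genes. In D1 SC minus SS 5553 of 37776 genes were higher and 4795 lower. In D1 CC minus CS 5686 of 38214 were higher and 14 lower, and in D1 CC minus SC 4220 of 37619 were higher and 4680 lower. Without the libraries failing the quality rule all 4 were 0, with 0% of all genes called in each. With background share as covariate D1 SC minus SS, D1 CC minus CS and D2 CC minus CS had 0 (0.0053%, 0% and 0.186% of all genes). The D1 interaction had 5 (7.12% of all genes). Subtracting background counts gave 1, 0 and 0 in D1 SC minus SS, D1 CC minus CS and D2 CC minus CS, where 1.12%, 0% and 0% of all genes were called. Total count scaling gave 1, 0, 7 and 0 in the 4 comparisons, where 0.708%, 0%, 9.05% and 0.0166% of all genes were called. RLE scaling gave 1 in D1 CC minus CS, 0 in D2 CC minus CS and 7 in the D1 interaction, where DESeq2 gave 14. Limma with library weights gave 34 in D1 CS minus SS, where 19.4% of all genes were higher and 24.5% lower. It gave 51 in D1 CC minus SC (16 higher and 35 lower), where 26.6% of all genes were higher and 18.5% lower. For D1 CC minus CS the count was 17 (9.8% of all genes higher and 2.25% lower). The D1 interaction had 1 (0.0106% higher and 0.0345% lower). In the D2 line limma gave 11 in SC minus SS (5.07% higher and 8.49% lower). D2 CS minus SS had 7 (2.28% higher and 9.24% lower). D2 CC minus SS had 24 (9.15% higher and 14.2% lower), and D2 CC minus CS had 0.

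Same-numbered libraries are not stated to be paired, and 5 of 36 D1 and 3 of 35 D2 libraries correlated best with their own number. The replicate block gave 12 in D1 SC minus SS (4.98% of all genes) and 5 in D1 CC minus CS (7.39%). It gave 9 in D1 CC minus SC (3.89%) and 0 in D2 CC minus CS. The replicate block with background share gave 0 in D1 SC minus SS, D1 CC minus CS and D2 CC minus CS. It gave 10 in the D1 interaction (6.85%).

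Of 85 single log2 changes, 82 kept direction and call with no filter on low counts, 68 with DESeq2, 63 with RLE and 26 without the libraries failing the quality rule. Direction turned in these. With limma, Kcnk16 in D1 CC minus SC was 0.13, in D1 SC minus SS -0.0602, in D2 CS minus SS -0.0231 and in the D2 interaction 0.026; Kcnc2 in D1 CC minus SC was 0.015; Kcnd1 was 0.0739 in D2 CC minus CS and -0.0749 in D2 CS minus SS. With DESeq2, Kcnk16 was 0.44 in D2 CC minus CS, -0.31 in D2 CS minus SS and 0.95 in the D2 interaction, and Kcnk3 0.0906 in D2 CC minus CS. Without the libraries failing the quality rule, Kcnk16 was 0.56, -0.52 and 0.99 in these, Kcnk3 0.010 in D2 CC minus CS, and Kcnj13 -0.18 in the difference of the lines. Kcnh7 was -0.11 in D1 SC minus SS with total count scaling, and Kcna5 0.00022 in D1 CS minus SS with background share as covariate. The cause was not tested. Shallow libraries limit members of a few CPM, where 1 library can carry a group.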
